A study of Macaca mulatta with 6 samples.

Results

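The axon guidance genes described here are the semaphorins and their plexin receptors, the ephrins and their EPHA and EPHB receptors, the SLIT proteins and their ROBO receptors, and the netrins with the UNC5 receptors. They were taken by symbol, from the prefixes SEMA, PLXN, EPHA, EPHB, EFNA, EFNB, SLIT, ROBO, NTN and UNC5 with SLITRK genes left out, which gave 65 of the 17795 genes in the count table. The choice was made with earlier results of these data known. Of these, 33 encode ligands and 30 encode receptors. The other 2, UNC50 and UNC5CL, share the prefix without being netrin receptors: UNC50 is a membrane protein of the Golgi apparatus. They were kept in the counts because the symbol rule includes them.

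The labels give the source of these rhesus monkey (Macaca mulatta) libraries as testis tissue, while the study's methods describe cultured spermatogonial stem cells (SSCs), which sustain sperm production, grown in hydrogel droplets; the group names below follow the study. The SSC PDGF+ group held 3 libraries from medium with human platelet-derived growth factor (PDGF), and the SSC PDGF- group held 3 libraries from PDGF-free controls. Both groups had an otherwise shared medium in the culture methods, with serum, GDNF, EGF, bFGF, LIF and Wnt3a, and no genotype, donor, age or culture day is given for these libraries. In each group replicate 1 belonged to batch 1 and replicates 2 and 3 to batch 2, and nothing states that replicates came from separate cultures, so p-values measure the spread between these libraries.

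Guidance ligands and receptors act mostly at cell contacts or over short distances. A ligand that binds its receptor changes the receptor's signaling to the actin cytoskeleton, so that a cell or growing process is repelled or attracted, and ephrins can also signal back into the cell that carries them. The same families shape blood vessels, epithelial boundaries and stromal cell sorting, and so are not restricted to neurons.

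The smallest library held 10593805 counts and the largest 14102697, and the SSC PDGF+ libraries were all larger than the controls. Levels are given as CPM, the library-scaled read count after TMM normalization, and a mean is followed by ± its SD over the libraries of a group (n = 3). The 15 germ cell markers were uneven. NANOS2 and STRA8 had 0 counts, GFRA1 had 0 to 9 counts per library, and DDX4 had 2 to 9 counts per library with PDGF and 13 to 38 without. UCHL1 and ID4, which other cell types also express, were abundant: UCHL1 was at 241 to 285 CPM with PDGF and 173 to 201 without (called higher, adjusted p by edgeR = 0.0319) and ID4 at 127 to 135 against 148 to 177. The spermatid genes TNP1 and TNP2 were at 22.3 to 38.4 CPM with PDGF and 205 to 346 without, and in all 1 marker was called higher and 5 lower. The summed CPM of 11 fibroblast and peritubular stromal markers was 14294 to 19636 with PDGF and 17358 to 19614 without, a sum carried by the collagens COL1A1, COL1A2 and COL3A1. Of these 11 markers 4 were called lower and 0 higher in edgeR. They were DES (9.67-fold, adjusted p by edgeR = 0.000151), ACTA2 (2.28-fold), COL3A1 (2.09-fold) and PDGFRA (1.48-fold). PDGFRA and FIP1L1 had identical counts throughout, so the 1.48-fold value may belong to FIP1L1 instead. The PDGFRA call was also lost in 5 of the 6 fits that left out 1 library (adjusted p by edgeR up to 0.149). Lower sums with PDGF, without overlap between groups, were found for 15 germ cell markers (425 to 513 against 767 to 1146), 8 epithelial markers (37.6 to 54.9 against 178 to 244) and 5 neural and glial markers (404 to 461 against 513 to 615). The difference in the germ cell sum lay mostly in the spermatid genes TNP1 and TNP2, while the abundant UCHL1 went the other way. It is therefore not a loss across all 15 markers. The 10 endothelial markers overlapped (29.7 to 40.0 against 29.9 to 54.6), as did 5 Sertoli markers (3.44 to 5.86 against 5.08 to 6.47), 8 Leydig markers (266 to 333 against 232 to 269) and 8 immune markers (17.7 to 19.9 against 12.6 to 20.8). The Leydig sum was nearly all STAR (257 to 322 CPM with PDGF, 215 to 254 without). STAR had the same count as LSM1 in every library, so these reads cannot be assigned to either gene. Of the other Leydig markers, CYP11A1 had 0 counts, INSL3 had 1 and LHCGR had 8 over all libraries. Among the immune markers PTPRC and CD3E were at 0, while CD68 was at 15.8 ± 1.61 CPM with PDGF and 12.9 ± 2.48 CPM without. CD14 had 45 counts with PDGF and 51 without, CD163 28 and 29, CSF1R 29 and 25, LYZ 19 and 12, and TYROBP 5 and 29. In these bulk libraries, fewer cells of a type and less RNA per cell cannot be told apart, and the part of these markers in the results below was not tested.

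PDGF cultures had a higher transcript level of 1 ligand, SEMA7A, while most guidance genes that changed were lower. Among the 65 members, 2 had no count in any library (SEMA3G and SEMA6A), 21 in all did not pass the count filter, and 44 were tested. In edgeR, 2 members were higher with PDGF (SEMA7A and EPHA7) and 16 were lower. Over all 11539 genes tested, 7.61% were called higher and 10.7% lower (18.3% in either direction), against 4.55% and 36.4% of the tested members. The members' median log2 fold change was -0.49, beside 0.02 over all genes tested. It was -0.45 in batch 1 and -0.46 in batch 2. In 23 of the 44 tested members the CPM of the 2 groups did not overlap, which is 52.3%, beside a background of 37.6% over all genes. EFNA3 and EFNA4 had identical counts in every library, so the 18 calls rest on 17 sets of reads.

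**Figure D1:**
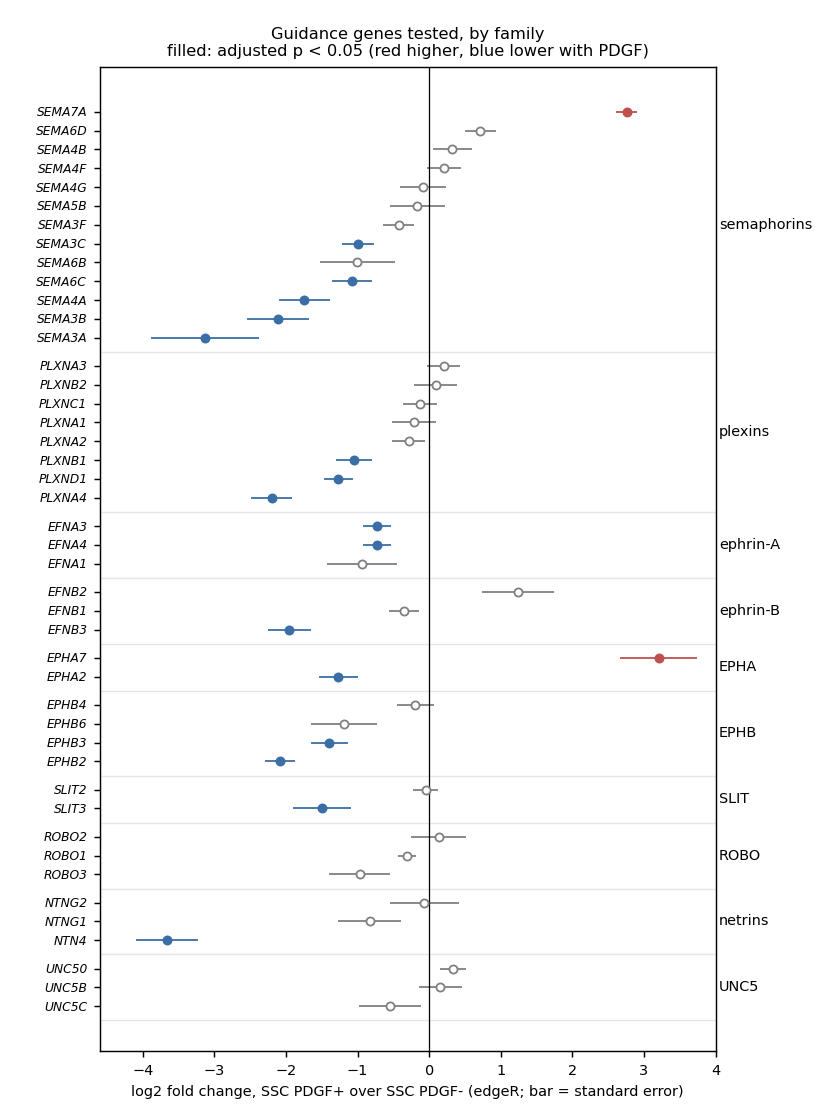
Log2 fold change of SSC PDGF+ over SSC PDGF- (x axis, edgeR) with its standard error for the 44 guidance genes tested, grouped by family. Filled points passed an adjusted p of 0.05: SEMA7A and EPHA7 lie to the right of 0 and the 16 lower genes to the left, with NTN4 at the far end (-3.66).

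Calls depended on how the batches entered the model. Under a model with the replicate number as block, 6 members were called higher and 24 lower, beside 31.1% and 29% of all genes (60.1% in either direction). With batch as a factor in place of the block, 7 were higher and 24 lower, beside 60.6% of all genes. In DESeq2, 3 were higher and 16 lower, beside 10.2% and 13.4% of all genes. In batch 2 alone 5 were higher and 24 lower, beside 26.2% and 26.6%. With the block and a per-library adjustment for GC and gene length, 9 were higher and 15 lower, beside 36.4% and 22.4% of all genes (58.8% together). This adjustment moved the members' median from -0.47 to -0.32, and that of all genes tested from 0.02 to 0.09. All 18 calls were kept with the block and 16 with the correction, EFNA3 and EFNA4 being the exceptions (adjusted p by edgeR = 0.168 and 0.0659). With replicates 2 and 3 added together in each group, 6 of the 18 calls were kept: SEMA7A, EPHA7, EPHB2, EFNB3, PLXNA4 and NTN4, beside 5.78% of all genes called (1.72% higher and 4.06% lower). These 6, with PLXND1 and EPHB3, were also the 8 members whose call held with each library left out in turn.

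The levels of the 8 genes in each library did not overlap between groups, which also held for all 18 called members. These 8 were picked by their calls, so this is no separate support. Over all genes tested, 37.6% had groups that did not overlap.

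**Figure D2:**
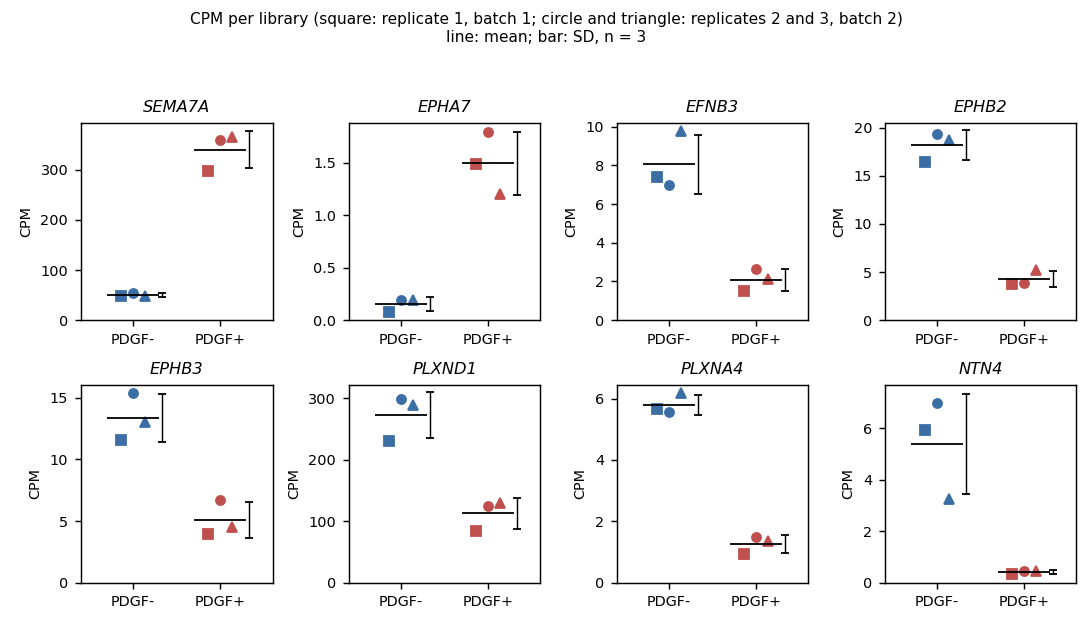
CPM (y axis, from 0) in each of the 6 libraries for the 8 guidance genes whose call held with every library left out. Squares are replicate 1 (batch 1), circles and triangles replicates 2 and 3 (batch 2), lines the means and bars the SD (n = 3). SEMA7A and EPHA7 are higher with PDGF in every library, and the other 6 are lower.

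Semaphorins are secreted or membrane-bound ligands, and 20 of them were listed. SEMA7A, a membrane-anchored semaphorin that binds plexin C1 and beta-1 integrin, was at 298, 359 and 365 CPM in SSC PDGF+ replicates 1, 2 and 3, and at 47.9, 54.0 and 48.7 CPM in SSC PDGF-. Every library with PDGF was far above every library without it. This was a 6.78-fold higher level (log2 fold change 2.76, standard error 0.15, adjusted p by edgeR = 5.68e-05), with log2 differences of 2.63 in batch 1 and 2.82 in batch 2. Of all 11539 genes tested, it ranked 53 by log2 fold change, and 6 by p-value among the genes with a positive change. By symbol, RefSeq places SEMA7A on chromosome 7 of Mmul_10, from 51438368 to 51462969 on the minus strand.

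SEMA7A took a larger share of the semaphorin transcripts with PDGF. Per kilobase of exon, it made up 85.5 ± 0.316% of the summed semaphorin level in SSC PDGF+ and 36.7 ± 1.88% in SSC PDGF-. Among the other 12 semaphorins tested, 5 were lower with PDGF and none was higher; SEMA6D came closest, at 31.0, 23.1 and 22.4 CPM with PDGF and 19.3, 14.4 and 12.8 CPM without. SEMA6D is a membrane-spanning ligand of plexin A1. Its groups did not overlap, and its log2 fold change was 0.72 (adjusted p by edgeR = 0.058, or 2.07e-05 with the replicate block and 0.0241 in DESeq2). It did pass when SSC PDGF- replicate 1 was left out (adjusted p by edgeR = 0.0203).

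Class 3 semaphorins are secreted and act through neuropilins and plexins. All 4 that were tested had a negative log2 fold change, and 3 of them were called lower. SEMA3A, which collapses growth cones, gave 4, 2 and 0 reads with PDGF, against 13, 10 and 21 without. It was 8.74-fold lower by the fitted value (log2 fold change -3.13, standard error 0.75, adjusted p by edgeR = 0.0242), a value that rests on few counts. SEMA3B was at 0.675, 2.03 and 1.35 CPM with PDGF and 3.94, 7.28 and 6.27 CPM without (log2 fold change -2.11, standard error 0.43, adjusted p by edgeR = 0.0128). SEMA3C, the most abundant of the called class 3 members, was at 9.25, 7.12 and 7.14 CPM against 18.2, 16.2 and 12.3 CPM. It was 1.99-fold lower (standard error 0.22 on the log2 scale, adjusted p by edgeR = 0.018). SEMA3F was at 11.8 ± 2.47 CPM and 15.8 ± 2.32 CPM, with overlapping groups (adjusted p by edgeR = 0.21, or 0.0138 with the block and 0.408 with GC and length also adjusted for).

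Among the membrane-bound semaphorins, SEMA4A was at 0.878, 0.547 and 0.977 CPM with PDGF and 2.71, 2.59 and 2.84 CPM without, a 3.35-fold lower level (adjusted p by edgeR = 0.013). SEMA6C was at 9.11, 17.6 and 14.9 CPM against 21.6, 33.3 and 33.1 CPM, a 2.11-fold lower level (adjusted p by edgeR = 0.0329). Neither gene's groups overlapped. SEMA6B had a log2 fold change of -1.005 (adjusted p by edgeR = 0.221, or 0.0098 with the block and 0.0724 with GC and length also adjusted for), and SEMA4B, SEMA4F, SEMA4G and SEMA5B lay between -0.16 and 0.33 with adjusted p of 0.448 to 0.869. SEMA4B was called higher with the block and the GC and length adjustment (log2 fold change 0.58, adjusted p by edgeR = 0.00839). SEMA4D, a ligand of plexin B1, did not pass the count filter of the main test, with 2, 3 and 2 with PDGF and 8, 18 and 6 without. Its ratio of group totals, 5.70 without over with PDGF, had an exact 95% interval (Clopper-Pearson) of 2.47 to 15.3 that covers counting error only, like all such intervals here. With replicates 2 and 3 added together it did, at an adjusted p by edgeR of 0.103, or 0.00565 with batch as a factor. SEMA5A (20 counts against 27) and SEMA4C (15 against 15) had ratios with over without PDGF of 0.594 (exact 95% interval 0.316 to 1.10) and 0.802 (0.365 to 1.76), and SEMA3D and SEMA3E had under 10 counts.

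The semaphorin calls other than SEMA7A were sensitive to single libraries. In edgeR, SEMA3A lost its call without SSC PDGF+ replicate 2 (adjusted p = 0.078) or 3 (0.0629) or SSC PDGF- replicate 3 (0.0912), SEMA3B without SSC PDGF- replicate 2 (0.052), SEMA3C without SSC PDGF+ replicate 2 (0.0789) or 3 (0.076) or SSC PDGF- replicate 2 (0.066), SEMA4A without SSC PDGF+ replicate 2 (0.063), and SEMA6C without SSC PDGF+ replicate 3 (0.0822) or SSC PDGF- replicate 2 (0.116) or 3 (0.114).

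Plexins are the main semaphorin receptors, and 8 of 9 were tested. PLXND1, the receptor of SEMA3E and known from blood vessel patterning, was at 84.4, 126 and 130 CPM with PDGF and 231, 300 and 289 CPM without. The highest library with PDGF stayed well under the lowest without it. This was a 2.41-fold lower level (log2 fold change -1.27, standard error 0.20, adjusted p by edgeR = 0.00412), with -1.45 in batch 1 and -1.20 in batch 2. PLXNA4, a receptor for SEMA3A and for class 6 semaphorins, was at 0.945, 1.49 and 1.35 CPM against 5.67, 5.56 and 6.17 CPM. It was 4.59-fold lower (standard error 0.29 on the log2 scale, adjusted p by edgeR = 0.00198). PLXNB1, the SEMA4D receptor that can pair with the MET kinase, was at 16.1, 24.9 and 23.6 CPM against 31.8, 55.7 and 46.7 CPM. It was 2.07-fold lower (adjusted p by edgeR = 0.0249). The PLXNB1 call was lost when SSC PDGF+ replicate 2 (0.0543) or 3 (0.0645), or SSC PDGF- replicate 2 (0.0991) or 3 (0.0845), was left out.

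The remaining plexins did not pass the test. PLXNB2, the most abundant plexin, was at 266, 485 and 483 CPM with PDGF and 247, 462 and 449 CPM without. In both groups the batch 1 library was far below the batch 2 libraries, and the difference between groups was small beside that (log2 fold change 0.09, adjusted p by edgeR = 0.858, or 0.0596 with the block). PLXNB2 was called higher with batch as a factor (0.0473) and with the block and the GC and length adjustment (log2 fold change 0.33, adjusted p 1.08e-06). PLXNA1 (42.8, 77.0 and 77.0 CPM against 48.5, 85.3 and 93.9 CPM) and PLXNA3 (52.5, 75.8 and 81.7 CPM against 45.9, 69.7 and 67.1 CPM) showed the same batch pattern, with adjusted p by edgeR of 0.665 and 0.572, or 0.0117 and 0.0174 with the block. With GC and length also adjusted for, PLXNA1 was no longer called (log2 fold change -0.0313, adjusted p 0.705) and PLXNA3 was (0.41, adjusted p 4.04e-05). PLXNC1, the plexin that SEMA7A binds, was at 9.56 ± 1.70 CPM and 10.4 ± 2.21 CPM. Its log2 fold change of -0.13 had a standard error of 0.23 (adjusted p by edgeR = 0.742). ITGB1, the beta-1 integrin that is the other SEMA7A receptor, was abundant in both groups, at 1709 ± 399 CPM and 1306 ± 329 CPM, with a log2 difference of 0.39 that did not pass in edgeR (0.254) and did with the block (2.21e-09). PLXNB3, under the count filter, had 7 counts with PDGF and 16 without, a ratio of 2.85 without over with PDGF (exact 95% interval 1.11 to 8.19).

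Levels were compared between genes per kilobase of exon, in CPM per kilobase. In SSC PDGF- the order began with PLXNB2 (59.7 ± 18.6), EPHB4 (46.3 ± 11.9), PLXND1 (38.7 ± 5.26) and ROBO1 (38.0 ± 4.03), neighbours whose ranges overlapped, and SEMA7A ranked 6 of 65 at 14.5 ± 0.966. In SSC PDGF+ SEMA7A ranked 1 at 98.6 ± 10.8, and its lowest library (86.1) was above the highest PLXNB2 library (75.1). PLXND1 ranked 6 with PDGF, at 16.05 ± 3.55. Its share of the summed plexin level was 16.005 ± 1.07% with PDGF and 32.0 ± 3.97% without.

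**Figure D3:**
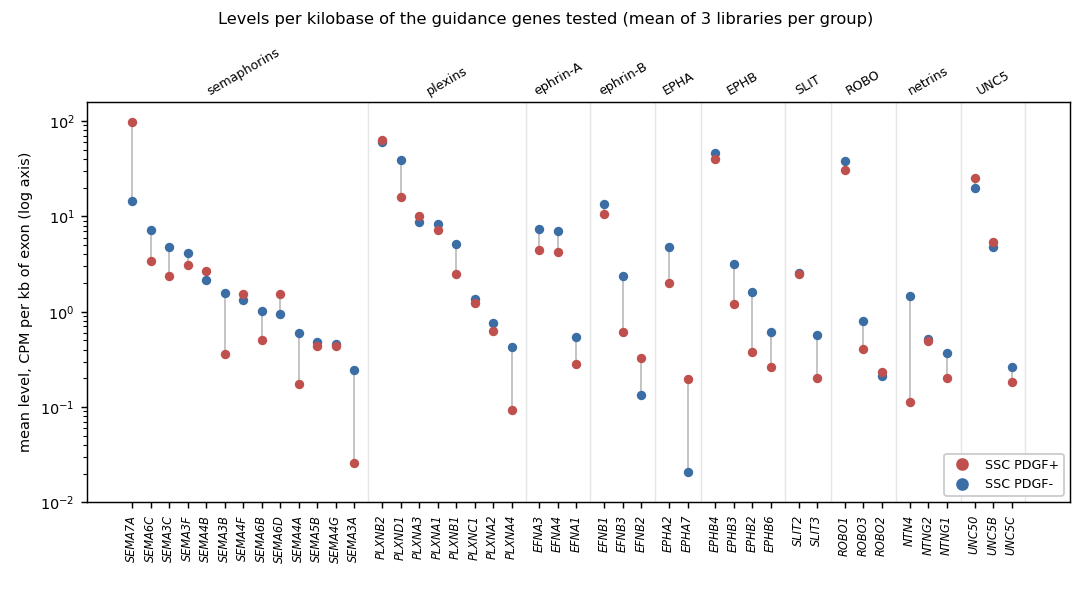
Mean level in CPM per kilobase of exon (log y axis, 3 libraries per group) of the 44 guidance genes tested, by family, ligands beside their receptors, with SSC PDGF+ in red and SSC PDGF- in blue. SEMA7A moves from 14.5 to 98.6, above all other members, while the leading members PLXNB2, EPHB4 and ROBO1 have points that lie close together. UNC50, drawn with the UNC5 family, only shares the prefix.

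Ephrins are ligands held at the cell surface, ephrin-A by a lipid anchor and ephrin-B by a membrane-spanning segment. EFNB3 was at 1.49, 2.66 and 2.1035 CPM with PDGF and 7.39, 6.99 and 9.80 CPM without. Its groups stood well apart, a 3.87-fold lower level (log2 fold change -1.95, standard error 0.30, adjusted p by edgeR = 0.00368). EFNB2, the partner of EPHB4 in artery and vein identity, pointed the other way, at 2.09, 1.17 and 1.65 CPM against 1.15, 0.383 and 0.490 CPM. It did not pass the test (log2 fold change 1.24, standard error 0.51, adjusted p by edgeR = 0.127), and did with the block (0.0388). EFNB1, the most abundant ephrin, was at 33.4 ± 7.48 CPM and 42.5 ± 6.62 CPM, with overlapping groups (adjusted p by edgeR = 0.285, or 0.00182 with the block and 0.354 with GC and length also adjusted for).

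For the ephrin-A ligands, EFNA3 and EFNA4 lie next to each other on chromosome 1 of Mmul_10 (95943608 to 95952368 and 95962952 to 95969395, both on the minus strand) and carried the same count in every library, so their reads cannot be assigned to either gene. The shared value was 7.49, 7.35 and 9.69 CPM with PDGF and 14.5, 12.8 and 13.4 CPM without. It was 1.66-fold lower (adjusted p by edgeR = 0.0354), and this call was lost with any library left out (0.0523 to 0.138). EFNA1 had 5, 12 and 15 counts against 16, 16 and 18 (adjusted p by edgeR = 0.218), and EFNA5 had 8 against 5, a ratio of 1.28 (exact 95% interval 0.370 to 4.99).

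EPHB receptors bind mainly ephrin-B and separate cells at tissue boundaries. EPHB2 was at 3.78, 3.83 and 5.18 CPM with PDGF and 16.4, 19.3 and 18.7 CPM without. No library of either group came near the other group, a 4.25-fold lower level (log2 fold change -2.09, standard error 0.21, adjusted p by edgeR = 6e-04). EPHB3 was at 3.98, 6.72 and 4.51 CPM against 11.6, 15.4 and 13.03 CPM, a 2.63-fold lower level (standard error 0.26 on the log2 scale, adjusted p by edgeR = 0.00805). EPHB4, the ephrin-B2 receptor and by far the most abundant member of the family, made up 95.4 ± 0.832% of the summed EPHB level per kilobase with PDGF and 89.4 ± 1.67% without. It was at 121, 202 and 205 CPM against 141, 229 and 233 CPM, with the batch 1 library lowest in both groups. Its log2 fold change of -0.19 did not pass (adjusted p by edgeR = 0.639, or 0.00162 with the block), and it was 0.09 with the GC and length correction (0.0942). EPHB6, which lacks kinase activity, had a log2 fold change of -1.19 (adjusted p by edgeR = 0.11, or 0.0483 with the block and 0.142 with GC and length also adjusted for). EPHB2, EPHB3 and EPHA2 are also made by many epithelia, and the summed epithelial markers were lower in the same libraries (37.6 to 54.9 CPM against 178 to 244 CPM). KRT7 was at 0.729 ± 0.254 CPM with PDGF and 108 ± 18.6 CPM without (adjusted p by edgeR = 3e-05). PAX8 was at 26.9 ± 5.07 CPM against 58.7 ± 11.2 CPM, and KRT18 at 10.2 ± 1.58 CPM against 31.1 ± 5.01 CPM. EPCAM had 0 or 1 count with PDGF and 3 to 12 without, and PAX2 had 0. Of the 6 epithelial markers tested, 4 were called lower and 0 higher. The part of the epithelial markers in these results was not tested.

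Among EPHA receptors, 8 were listed and 2 passed the count filter. EPHA2, an ephrin-A1 receptor common in epithelia, was at 6.55, 10.1 and 7.36 CPM with PDGF and 13.1, 22.4 and 22.3 CPM without. It was 2.41-fold lower (log2 fold change -1.27, standard error 0.28, adjusted p by edgeR = 0.0161). The call was lost when SSC PDGF+ replicate 3 (0.0641), or SSC PDGF- replicate 2 (0.0664) or 3 (0.0663), was left out. EPHA7, a receptor for ephrin-A5 known from cortical patterning, had counts of 22, 23 and 16 with PDGF, against 1, 2 and 2 without. It was 9.22-fold higher by the fitted value (log2 fold change 3.20, standard error 0.54, adjusted p by edgeR = 0.00554), at a level of 1.495 ± 0.298 CPM with PDGF.

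Several Eph receptors under the count filter had uneven totals between groups. EPHA4 gave 17, 15 and 5 reads with PDGF, against 5, 3 and 0 without, a ratio of group totals of 3.71 (exact 95% interval 1.70 to 9.22). EPHA5 had 14, 8 and 7 against 1, 5 and 2, a ratio of 2.91 (exact 95% interval 1.30 to 7.36), and EPHB1 had 11 counts in all against 1, a ratio of 8.82 (exact 95% interval 1.28 to 380). EPHA10, which lacks kinase activity, had 0 counts with PDGF and 0, 13 and 3 without, and 1 library held most of these counts. Against a floor of 3 counts over the PDGF group, its ratio without over with PDGF was 6.65. That value is no lower bound, since the exact 95% interval of the ratio began at 4.81 and had no upper end. EPHA3, EPHA6 and EPHA8 had 4 to 9 counts in all 6 libraries together. These ratios cover counting error only. Of these receptors EPHA4 passed the count filter in some other fits: with replicates 2 and 3 added together its log2 fold change was 1.87 (adjusted p by edgeR = 0.207, or 0.0233 with batch as a factor), and with single libraries left out its adjusted p was 0.101 to 0.304.

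SLIT proteins are large secreted ligands of the ROBO receptors. SLIT3 was at 1.49, 1.95 and 2.48 CPM with PDGF and 3.20, 5.17 and 8.43 CPM without, with groups that did not overlap and a wide spread without PDGF. It was 2.82-fold lower (log2 fold change -1.50, standard error 0.41, adjusted p by edgeR = 0.0385). This call was kept among the 6 leave-one-out fits in only that without SSC PDGF- replicate 1, with adjusted p of 0.0864, 0.105 and 0.0702 without SSC PDGF+ replicates 1, 2 and 3 and 0.0908 and 0.138 without SSC PDGF- replicates 2 and 3, and it was lost in limma-voom (0.0619). SLIT2, the most abundant SLIT, was at 20.1 ± 2.09 CPM and 20.8 ± 2.69 CPM, a log2 fold change of -0.05 with a standard error of 0.18 (adjusted p by edgeR = 0.87).

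None of the ROBO receptors was called in edgeR. ROBO1, which made up 97.3 ± 0.636% of the summed ROBO level per kilobase with PDGF and 97.0 ± 0.853% without, was at 266, 252 and 240 CPM against 352, 292 and 296 CPM. Its groups did not overlap, and its log2 fold change of -0.31 (standard error 0.13) had an adjusted p by edgeR = 0.137, or 9.16e-06 with the block. ROBO3 had a log2 fold change of -0.97 (adjusted p by edgeR = 0.152, or 0.0196 with the block and 0.0927 with GC and length also adjusted for) and ROBO2 one of 0.13 (0.839). At an unadjusted p, edgeR gave 0.0433 for ROBO1, 0.0509 for ROBO3 and 0.737 for ROBO2, so 1 of the 3 was under 0.05, and DESeq2 and limma-voom called 0 of them. ROBO4, known from blood vessels, had 34 counts against 19, a ratio of 1.44 (exact 95% interval 0.796 to 2.66), an interval that holds both no difference and a difference over 2-fold. With replicates 2 and 3 added together its adjusted p by edgeR was 0.682.

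Netrins are laminin-like secreted ligands, and of the classical ones NTN1 was not analysed here. NTN4, a netrin of basement membranes that binds laminin chains, was at 0.338, 0.469 and 0.451 CPM with PDGF and 5.91, 6.99 and 3.23 CPM without. In counts this was 5, 6 and 6 against 72, 73 and 33. The groups were far apart although SSC PDGF- replicate 3 was lower than its group, a 12.6-fold lower level (log2 fold change -3.66, standard error 0.43, adjusted p by edgeR = 0.00114). It had the largest fitted decrease of the 44 members tested, with -4.003 in batch 1 and -3.27 in batch 2. NTNG1 and NTNG2, membrane-anchored netrin-G proteins, had log2 fold changes of -0.83 and -0.07 (adjusted p by edgeR = 0.231 and 0.936).

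The UNC5 receptors mediate repulsion by netrins. UNC5B made up 96.5 ± 1.12% of the summed level of UNC5A to UNC5D per kilobase with PDGF and 92.5 ± 1.96% without. It was at 24.0, 42.0 and 46.1 CPM against 22.8, 39.8 and 38.1 CPM, low in the batch 1 library of both groups (log2 fold change 0.16, standard error 0.30, adjusted p by edgeR = 0.748), and was called higher with the block and the GC and length adjustment (log2 fold change 0.32, adjusted p 0.00562). UNC5C had a log2 fold change of -0.55 (adjusted p by edgeR = 0.412). UNC5A had 1 count with PDGF and 14 without, a ratio of 17.5 without over with PDGF (exact 95% interval 2.66 to 738), and UNC5D had 2 counts in all. UNC50, which is no netrin receptor, was at 54.5 ± 9.31 CPM and 43.3 ± 5.84 CPM, with an adjusted p by edgeR = 0.239, or 0.00145 with the block.

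Of the 44 members tested, 38 had the same sign in batch 1 and batch 2, a share near that of all genes (9790 of 11539). The 18 called members all did, but a call over all libraries favours genes that differ the same way in each batch. Batch 1 holds 1 library per group, so its values have no error of their own.

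**Figure D4:**
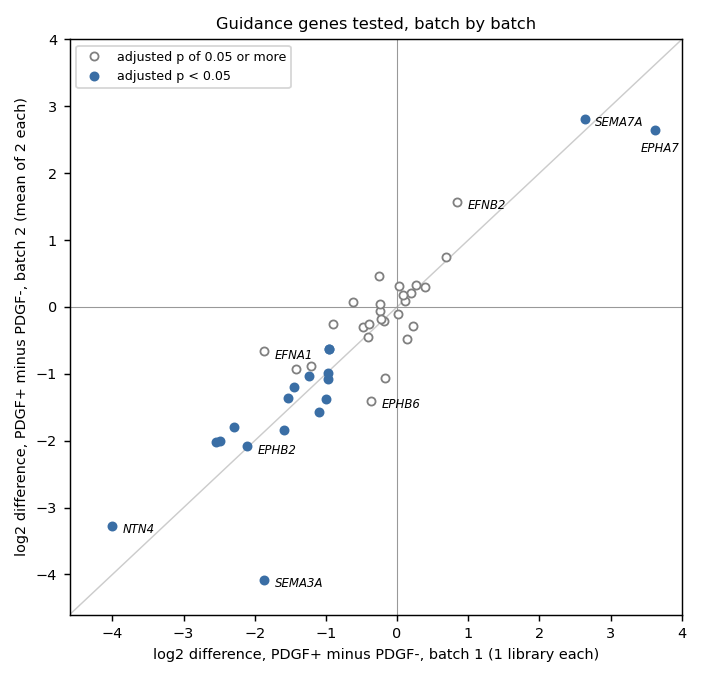
Log2 difference of SSC PDGF+ minus SSC PDGF- in batch 1 (x axis, 1 library per group) and in batch 2 (y axis, mean of 2 libraries per group) for the 44 guidance genes tested, with 0.5 counts added. Filled points were called in edgeR over all libraries, and the grey line marks equal differences. SEMA7A lies near the line at 2.63 and 2.82, and SEMA3A, with few counts, lies far from it at -1.87 and -4.09.

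Coreceptors, other binding partners and cytoplasmic effectors of these receptors were followed as a list of 64 genes, of which 53 were tested. In edgeR 6 were higher with PDGF and 7 were lower, 24.5% of those tested beside 18.3% of all genes, and their median log2 fold change was -0.03. With the replicate block 19 were higher and 17 lower, beside 31.1% and 29% of all genes (60.1% in either direction). Among the coreceptors, NRP2, which SEMA3C and SEMA3F use, was at 9.25, 8.21 and 8.41 CPM against 16.8, 23.3 and 15.6 CPM, while NRP1, the SEMA3A coreceptor, was at 136 ± 18.3 CPM and 120 ± 20.1 CPM. NRP2 was 2.15-fold lower (adjusted p by edgeR = 0.00968) and NRP1 was not called (0.521, or 0.00942 with the block and 0.206 with GC and length also adjusted for). MET, the kinase that plexin B1 can recruit, was at 4.19, 3.99 and 4.43 CPM against 15.1, 12.5 and 9.80 CPM, a 2.97-fold lower level (adjusted p by edgeR = 0.00319). DCC, the netrin receptor of attraction, had 0 counts with PDGF and 7 without.

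FLRT3, an adhesion molecule that binds UNC5B, was the called partner with a higher level that held with each library left out. It was at 46.2, 31.2 and 35.8 CPM with PDGF and 16.4, 10.9 and 14.5 CPM without. This was a 2.70-fold higher level (log2 fold change 1.44, standard error 0.22, adjusted p by edgeR = 0.00405). NEO1, a receptor for netrins and repulsive guidance molecules, was at 163, 152 and 149 CPM against 109, 114 and 112 CPM. It was 1.39-fold higher (adjusted p by edgeR = 0.0312), and without a given library its adjusted p was 0.0493 to 0.109, the call being lost in 5 of 6 fits.

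Of 44 cytoplasmic effectors tested, 4 were higher (VASP, NGEF, CHN1 and TRIO) and 5 were lower (DPYSL5, DPYSL4, ABLIM1, ARHGEF11 and CHN2). Together these calls were 20.5% of the effectors tested, near the 18.3% of all genes, and the effectors' median log2 fold change was -0.05. VASP, which promotes actin filament elongation, was at 225 ± 12.997 CPM and 144 ± 3.36 CPM, a log2 fold change of 0.65 (adjusted p by edgeR = 0.00868). NGEF, an exchange factor that EphA receptors activate, was at 3.08 ± 0.258 CPM and 1.10 ± 0.327 CPM, and CHN1, a RAC inhibitor downstream of EPHA4, had a log2 fold change of 0.56 (adjusted p by edgeR = 0.0207 and 0.0412). DPYSL5, a collapsin response mediator, was at 0.405, 0.782 and 0.451 CPM against 3.37, 4.02 and 8.23 CPM, a 9.43-fold lower level (adjusted p by edgeR = 0.00367). DPYSL4 of the same family was at 54.8 ± 19.2 CPM and 119 ± 33.4 CPM, and ARHGEF11, the RHOA exchange factor that B plexins bind, at 69.3 ± 7.40 CPM and 114 ± 15.7 CPM, with adjusted p of 0.0436 and 0.018 in edgeR. The actin-binding ABLIM1 (log2 fold change -1.90), the RAC inhibitor CHN2 (-1.22) and the exchange factor TRIO (0.59) passed in edgeR at 0.0163, 0.0317 and 0.0499. Of these 9 effectors only DPYSL5 kept its call with each library left out.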

How the data were processed

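Bulk RNA-seq was analysed from 6 libraries, 3 per group, grouped by the labels. The authors deposited expected counts per gene: 34 values in 13 genes, none a guidance gene, ended in a fraction and were rounded. The submitters' processing notes name fastp, HISAT2 (version 2.1.0), SAMtools and featureCounts (version 2.0.1) with the builds Mmul_10 and Mmul_8.0.1, without saying which build the counts rest on or whether strand was used. Exon lengths, GC content and positions were matched by symbol to RefSeq annotation release 103 of Mmul_10 for all 65 members. SEMA4G shares 434 exon bases with the opposite-strand gene MRPL43, and UNC5A shares 30 with the opposite-strand gene HK3. Both MRPL43 and HK3 are in the count table.

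In R 4.3.3, the main test was edgeR 4.0.16 (TMM, filterByExpr, quasi-likelihood F-test, no block) over 11539 genes, and a gene was called at a Benjamini-Hochberg adjusted p below 0.05. The standard error was taken as the absolute log2 fold change over the root of its F statistic. DESeq2 1.42.0 and limma 3.58.1 (voom) were alternatives, and the GC and length fit used 11237 genes. The code was tested on simulated data. Exact permutation of 3 against 3 libraries cannot go below p = 0.1, so it was not used for single genes.

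The labels place same-numbered libraries in the same batch. Across genes, each library's deviation from its group mean correlated at r = 0.698, 0.318 and 0.338 for same-numbered libraries, and at 0.354 and 0.328 between replicates 2 and 3, so the numbers mark the batch and not clearly a finer pairing.

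The members and lists were chosen with earlier results of these data known. Named genes were all members called, the most abundant member per family, members called with the block only, called partners, and members under the count filter with at least 10 counts. Other named members were chosen after their values were seen. Library totals set the precision, and intervals cover counting error only. NTN1, NTN3, NTN5, EFNA2 and EPHA1 were not analysed here.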

Additional observations from a re-analysis of the deposited data

How the results depend on the processing

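With the replicate block, 6 guidance genes were called higher and 24 lower in place of 2 and 16, and 19 partner genes higher and 17 lower in place of 6 and 7. The block and the GC and length adjustment together gave 9 guidance genes higher and 15 lower, and 20 partners higher and 14 lower. Batch as a factor gave 7 guidance genes higher and 24 lower, and 18 partners higher and 17 lower. Batch 2 alone gave 5 guidance genes higher and 24 lower, and 15 partners higher and 16 lower. Summing replicates 2 and 3 gave 2 guidance genes higher and 4 lower, and 1 partner higher and 2 lower. The same with batch as a factor, added after seeing the data, gave 7 guidance genes higher and 25 lower, and 19 partners higher and 16 lower. An adjusted p under 0.01 left 6 guidance genes lower, and 2 partners higher and 3 lower. Requiring 10 counts in every library gave 1 guidance gene higher and 3 partners higher, and upper-quartile normalization gave 3 partners higher. Leaving out each library gave 2 to 4 guidance genes higher and 8 to 15 lower (9 without SSC PDGF+ replicate 2, 8 without replicate 3, 8 without SSC PDGF- replicate 2, 9 without replicate 3), and 1 to 8 partners higher and 3 to 10 lower. Calls over all genes moved as well. They were 878 higher and 1230 lower in the main test, 3587 and 3347 with the block, and 3041 and 3085 in batch 2 alone. With replicates 2 and 3 summed they were 206 and 487, and with batch as a factor added to that 3669 and 3420. With a library left out they were 435 to 1284 higher and 726 to 1726 lower. The cause of these changes was not tested.

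Of the single-gene values, 886 kept their direction and side of the threshold, 60 newly passed it, 104 no longer passed it and 24 changed sign. The fold changes that changed sign were all small. With the block and the GC and length adjustment they were EPHB4 (0.0933), SEMA5B (0.10), ROBO2 (-0.0108) and NTNG2 (0.23), and in batch 2 alone SEMA4G (0.0715) and SLIT2 (0.0394). With each library left out, the log2 fold change ran from -0.41 to 0.0249 for EPHB4, -0.46 to 0.0323 for PLXNA1, -0.16 to 0.34 for PLXNB2, -0.36 to 0.18 for SEMA4G, -0.43 to 0.20 for SEMA5B, -0.23 to 0.0543 for PLXNC1, -0.13 to 0.0418 for SLIT2, -0.12 to 0.54 for ROBO2, -0.40 to 0.24 for NTNG2 and -0.0726 to 0.41 for UNC5B. That of SEMA3A, called on few counts, was -3.95 without SSC PDGF+ replicate 1 and -2.58 without SSC PDGF+ replicate 3. The share of higher calls among the guidance calls was 11.1% as reported, 20% with the block and 37.5% with the GC and length adjustment added (41.7, 51.7 and 61.9% over all genes). Depth limits the members with few counts, 21 of which were not tested.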
